A study of Mus musculus with 6 samples.

Results

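The long noncoding RNAs described here are 10 genes of mouse embryonic stem (ES) cells: Snhg1, Snhg3, Snhg4, Snhg6, Snhg8, Snhg12, Gas5 and Zfas1, which host small nucleolar RNAs (snoRNAs) in their introns, and Malat1 and Neat1, which stay in nuclear bodies. They were chosen by name. Of the 23244 loci in the files, 9 carried the name itself, and Zfas1 was found under its RefSeq synonym 1500012F01Rik. RNA was sequenced after depletion of ribosomal RNA in 3 libraries of a subcloned ES line with Zscan10 deleted (null), set against 3 libraries of ES cells with floxed, undeleted Zscan10 (control). Zscan10 is a zinc-finger gene active in ES cells. The control titles carry the mark -Tx and the null titles do not, so genotype, subclone and any difference in treatment cannot be told apart. Separate cultures within a group are not stated, so the p-values rest on a spread between libraries that may be only technical.

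A snoRNA host gene is transcribed as a spliced RNA whose introns are cut down to snoRNAs. Box C/D snoRNAs guide methylation and box H/ACA snoRNAs guide pseudouridylation of ribosomal RNA. The spliced exons of many hosts begin with a tract of C and T, are bound by ribosomes and are then destroyed by nonsense-mediated decay. Malat1 is an abundant RNA of nuclear speckles, where splicing factors gather. Neat1 is the scaffold of paraspeckles. Its long form builds them, and a short polyadenylated form shares its 5′ end. Zfas1 is antisense to the start of Znfx1.

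Start windows are shown because the tract of C and T at the start is the feature by which hosts of this kind are known. Each runs from 40 bases before the start to 20 bases from it, 5′ to 3′ on the gene's strand, from RefSeq on GRCm38.p6. Capitals mark a run of at least 6 C or T that touches the 15 bases on either side of the start, and TATAA or TATAT within 40 to 20 bases before it. The table held 7 of the 10 genes. Snhg4, Snhg6 and Neat1 were not among them. Gas5 had a further entry, and the window shown for it is at the start of the transcript matched to its locus. The other Gas5 window was not counted among those of the 10 genes. The windows lie at chr19:8723447-8723506 (+) for Snhg1, chr4:132353667-132353726 (-) for Snhg3, chr3:123508317-123508376 (-) for Snhg8, chr4:132308638-132308697 (+) for Snhg12, chr1:161035126-161035185 (+) for Gas5, chr2:167062894-167062953 (+) for Zfas1 and chr19:5802653-5802712 (-) for Malat1.
Snhg1: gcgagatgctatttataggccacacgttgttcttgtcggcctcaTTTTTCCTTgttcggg
Snhg3: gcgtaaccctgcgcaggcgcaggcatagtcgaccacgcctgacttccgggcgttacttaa
Snhg8: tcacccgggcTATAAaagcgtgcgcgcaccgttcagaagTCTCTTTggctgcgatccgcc
Snhg12: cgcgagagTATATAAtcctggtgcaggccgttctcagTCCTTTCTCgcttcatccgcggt
Gas5: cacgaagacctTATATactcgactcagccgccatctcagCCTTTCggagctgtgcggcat
Zfas1: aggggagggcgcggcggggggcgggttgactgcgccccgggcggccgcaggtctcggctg
Malat1: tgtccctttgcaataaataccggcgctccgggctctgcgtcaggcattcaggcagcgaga

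A run of at least 6 C or T was present in 4 of these 7 windows, Snhg1, Snhg12, Snhg8 and Gas5, against 37.5% of all 32851 windows in the table. TATAA or TATAT on the gene's strand was found in Snhg8, Snhg12 and Gas5, against 4.34% of windows, and those 3 genes held both features, as did 1.84% of windows. On either strand the motif was in 4 of the 7 windows, against 4.88% of all. The letters searched were chosen after the windows were seen, and a match is a description of the window. None of the 4 hosts with such a run passed the test described below. Snhg3 and Zfas1, whose windows lack such a run, did not pass either, and Snhg4, the host that did, had no window. The windows therefore cannot show whether the run goes with a change or with its absence.

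The end of the short Neat1 transcript is shown because the locus in the files lists the accession of this short form alone. It lies at chr19:5842307-5842406 on the minus strand of GRCm38, with the polyadenylation signal AATAAA in capitals.
Neat1 short transcript: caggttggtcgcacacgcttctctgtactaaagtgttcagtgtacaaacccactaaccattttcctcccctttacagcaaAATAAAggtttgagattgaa
A pair of hosted snoRNAs is shown as examples of the RNAs that lie in the introns: Snord22, a box C/D snoRNA in Snhg1 at chr19:8725866-8725991 (+), with its box D letters CTGA in capitals, and Snora24, a box H/ACA snoRNA in Snhg8 at chr3:123507937-123508066 (-), with its ACA in capitals.
Snord22: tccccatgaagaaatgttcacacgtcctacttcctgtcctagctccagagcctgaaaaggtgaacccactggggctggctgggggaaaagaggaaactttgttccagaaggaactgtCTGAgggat
Snora24: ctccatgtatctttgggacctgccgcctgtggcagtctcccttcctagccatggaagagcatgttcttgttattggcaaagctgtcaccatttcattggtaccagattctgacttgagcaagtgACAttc

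Values are FPKM, fragments mapped to a locus divided by transcript length and library size. No raw counts were used. The depth read from the steps between low values came to roughly 7650000 to 8500000 fragments per null library and 7750000 to 8500000 per control library, at which Neat1 rested on about 849 to 1886 fragments. Zscan10 was at 5.49, 4.43 and 5.47 FPKM in the null libraries, against 44.2, 43.0 and 41.9 FPKM in the control libraries. The 8 ES cell markers summed to 3870 to 4178 FPKM in null libraries and 4156 to 4249 FPKM in control libraries, with 7 lower on average in null and 2 called lower by limma, Esrrb and Zfp42. Fibroblast markers, a sign of feeder cells, summed to 9.66 to 15.7 FPKM in null libraries and 17.7 to 21.6 FPKM in control libraries, with 5 of 8 lower on average in null and none at 0 throughout. Of the 5 tested, Thy1 was called higher, and Acta2 and Tagln lower. Markers of primitive endoderm summed to 3.44 to 4.85 FPKM in null and 4.81 to 6.06 FPKM in control, with 5 of 6 lower on average in null. These ranges overlapped. Of the 6, 2 had a mean of at least 1 FPKM and were tested, and neither was called. The part of these cells in the differences below was not tested. In bulk RNA, fewer cells of a type and less RNA per cell cannot be told apart.

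All 10 RNAs had a mean of at least 1 FPKM and were tested with limma on log2(FPKM + 1) over 11480 loci, with Benjamini-Hochberg adjustment at 0.05. Neat1, Snhg4 and Malat1 fell in the null cells, none of the 10 rose, and 7 did not pass. At an unadjusted limma p under 0.05, 4 were lower and none higher. The share of all tested loci at this unadjusted threshold is not given, and it cannot be below the share called after adjustment. Counts at this threshold, here and below, are therefore not read as an excess. Among all tested loci 12.4% fell and 12.8% rose, 25.2% in all (1468 rises and 1426 falls, or 1876 and 1114 with libraries set to the same total), so the 3 calls of 10 are near the share of the whole table. Both RNAs of nuclear bodies fell, against 1 of the 8 hosts. The median log2 change was -0.09 over the 10 RNAs and -0.07 over the 8 hosts, against -0.003 over all tested loci. The null and control values did not overlap for Neat1, Snhg4, Malat1 and Zfas1, all 4 lower in null. Of all tested loci, 44.1% did not overlap in either direction and 22.5% did so with null lower.

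**Figure D1:**
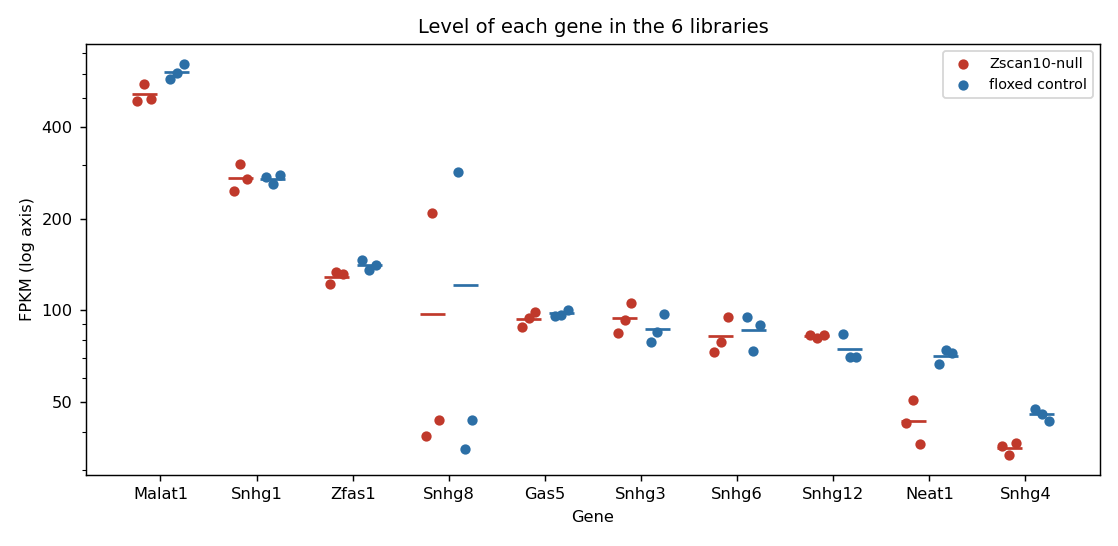
FPKM (log axis) of each noncoding RNA in the 3 Zscan10-null libraries and the 3 floxed control libraries, 1 point per library, with a line at each group mean. Neat1 and Snhg4 sit lower in every null library, while the Snhg8 points of either group spread from below 50 to above 200 FPKM.

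Malat1 was the most abundant of the 10 in both groups, followed by Snhg1 and Zfas1. FPKM is per length, so setting these levels side by side rests on the lengths used. For Neat1 the locus lists the short form alone, and fragments of the long form cannot be told apart. Snhg1 and Zfas1 did not overlap with their neighbours in this order when Snhg8, whose values scatter, is left aside. In the control libraries Gas5, Snhg3, Snhg6 and Snhg12 lay between 70.2 and 100.3 FPKM. Snhg3 overlapped each of the others, Snhg6 overlapped Snhg12, and Gas5 lay above all values of Snhg6 and Snhg12. Neat1, at 66.9 to 73.9 FPKM, overlapped the lower ends of Snhg12 and Snhg6. In the null libraries Neat1 lay at 36.5 to 50.6 FPKM, below the 4 and overlapping the highest Snhg4 values.

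Neat1 was at 42.6, 50.6 and 36.5 FPKM in the null libraries, against 66.9, 73.9 and 72.3 FPKM in the control libraries. Every null library was lower than every control library. The means were 43.2 ± 7.12 FPKM in null cells and 71.0 ± 3.63 FPKM in control cells (SD, n = 3 each), and the null mean was 0.609 of the control mean. The log2 change was -0.71 ± 0.11 (SE), with a 95% interval of -0.97 to -0.46 and a limma adjusted p of 0.00405. Neat1 lies at chr19:5824708-5845480 on the minus strand. Since the short form lies within the long one at its 5′ end, fragments of the forms cannot be told apart in this value.

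Malat1 was at 489, 555 and 496 FPKM in the null libraries, against 576, 604 and 647 FPKM in the control libraries. The null values were again all lower, but the highest null value was close to the lowest control value. The means were 513 ± 36.4 FPKM in null cells and 609 ± 35.8 FPKM in control cells (SD, n = 3 each). Its log2 change was -0.25 ± 0.06 (SE), with a limma adjusted p of 0.0269. This call did not hold in 6 of 15 alternatives. The limma adjusted p was 0.0548 with libraries set to the same total and 0.0533 without the variance trend. It was 0.0636 without null replicate 1, 0.0819 without null replicate 3, 0.0740 without control replicate 2 and 0.0755 without control replicate 3. Malat1 lies at chr19:5795690-5802672 on the minus strand, as a transcript of 6983 bases in GENCODE M21, and had more FPKM than 98.6% of tested loci.

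Neat1 and Malat1 are neighbours on chromosome 19, 22035 bases apart. Per 100 FPKM of Malat1, Neat1 came to 8.71, 9.12 and 7.35 FPKM in the null libraries, against 11.6, 12.2 and 11.2 FPKM in the control libraries. All null ratios were lower than all control ratios. The log2 difference of the ratio was -0.48, and the exact two-sided permutation test over the 6 libraries gave p = 0.1, the smallest that 3 against 3 allows.

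Of 9 other tested loci within 100 kb of either gene, none passed the limma threshold in either direction, against 25.2% of all tested loci. At an unadjusted limma p under 0.05, 1 was higher and 1 lower. With so few loci, these counts are not read as a trait of the region. The log2 changes of the 9 loci ran from -0.31 for Fam89b to 0.20 for Sssca1, with a median of -0.0004.

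**Figure D2:**
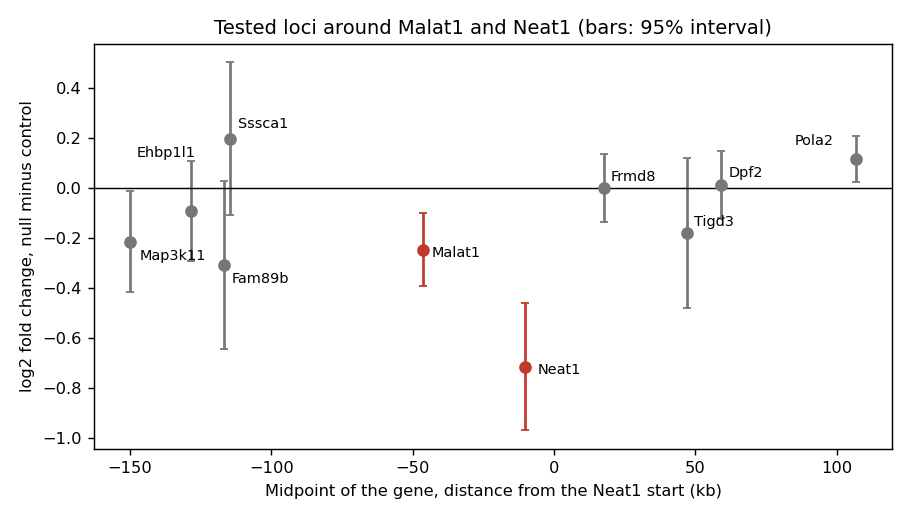
Log2 fold change, null minus control, with its 95% interval, against the distance of each gene's midpoint from the Neat1 start in kb. Neat1 and Malat1 (red) lie at -0.71 and -0.25. None of the 8 other loci drawn (grey) passed the threshold, which 25.2% of all tested loci passed.

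Among the hosts, Snhg4 was the gene that fell. It carries Snora74a, a box H/ACA snoRNA, in an intron and lies at chr18:35553410-35558316 on the plus strand. Snhg4 was at 35.8, 33.5 and 36.6 FPKM in the null libraries, against 47.6, 45.8 and 43.2 FPKM in the control libraries. The groups did not overlap, and the spread within each was small. The log2 change was -0.36 ± 0.05 (SE), with a 95% interval of -0.48 to -0.23 and a limma adjusted p of 0.00375. At this depth Snhg4 rests on about 326 to 463 fragments per library. Snora74a itself was at 956, 1123 and 1193 FPKM in the null libraries, against 2016, 1237 and 796 FPKM in the control libraries. Its groups overlapped, its log2 change was -0.21 ± 0.29 (SE), and its limma adjusted p was 0.632. Matr3, which encodes an RNA-binding protein of the nuclear matrix, lies 3841 bases from Snhg4 on the same strand. Matr3 averaged 131 FPKM in null cells and 140 FPKM in control cells, a log2 change of -0.09 with a limma adjusted p of 0.148. Of 5 tested loci within 100 kb of Snhg4, Paip2 rose, with a log2 change of 0.19 and a limma adjusted p of 0.00785, and Sil1 fell, with a log2 change of -0.39 and a limma adjusted p of 0.0290.

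Zfas1 was at 122, 134 and 132 FPKM in the null libraries, against 147, 135 and 141 FPKM in the control libraries. The groups did not overlap by a small margin, and the log2 change of -0.13 ± 0.05 (SE) had a limma adjusted p of 0.10. Znfx1, which encodes a zinc-finger helicase and overlaps Zfas1 on the opposite strand, rose to a mean of 10.9 FPKM in null cells, against 8.16 FPKM in control cells, a log2 change of 0.38 with a limma adjusted p of 0.00704. The labels do not say whether strand was used in counting, so fragments from where they overlap cannot be assigned to either. Of 3 tested loci within 100 kb, the others were Stau1, which fell, with a log2 change of -0.36 and a limma adjusted p of 0.0398, and 1 that did not pass. Neighbouring genes named here were chosen after their values were seen.

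Gas5, whose span holds 10 annotated snoRNAs and whose spliced RNA accumulates when cells stop growing, showed a narrow spread. It was at 87.9, 94.4 and 98.5 FPKM in the null libraries, against 96.0, 96.8 and 100.3 FPKM in the control libraries. Its groups overlapped, and the 95% interval of the log2 change was -0.18 to 0.05. The locus also carries Mir5117 and an assembled transcript. Its span overlaps that of Zbtb37 on the other strand, with a log2 change of 0.21 and a limma adjusted p of 0.119.

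Snhg1, the most abundant host, is the source of 8 annotated snoRNAs, Snord22 among them. Snhg1 was at 246, 302 and 271 FPKM in the null libraries, against 273, 260 and 279 FPKM in the control libraries. The control values lay within the range of the null values. The log2 change was 0.01 ± 0.07 (SE), with a 95% interval of -0.16 to 0.17. Slc3a2, an amino acid transporter subunit that lies 117 bases away, averaged 109 FPKM in null cells and 121 FPKM in control cells, with a limma adjusted p of 0.108.

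Snhg3 and Snhg12 lie near each other on chromosome 4. Snhg3 was at 84.1, 92.7 and 106 FPKM in the null libraries, against 78.7, 84.8 and 97.0 FPKM in the control libraries, and Snhg12 was at 83.1, 81.1 and 83.3 FPKM in null, against 83.8, 70.3 and 70.2 FPKM in control. The groups overlapped for both, through 1 control library for Snhg12. The 95% intervals of the log2 change were -0.12 to 0.35 for Snhg3 and -0.02 to 0.31 for Snhg12. Without control replicate 1, Snhg12 rose, with a log2 change of 0.23 and a limma adjusted p of 0.0172.

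Snhg6, the host of Snord87, was at 72.9, 78.5 and 94.98 FPKM in the null libraries, against 95.5, 73.8 and 89.8 FPKM in the control libraries. Its groups overlapped over most of their range, and the 95% interval of the log2 change was -0.35 to 0.21. Of 12 tested neighbours within 100 kb of Snhg1, Polr2g alone passed, and it rose, with a log2 change of 0.29. Taf12 alone passed of 7 near Snhg3 and of 9 near Snhg12, and it rose, with a log2 change of 0.33. Of 4 near Snhg6, Sgk3 alone passed, and it fell, with a log2 change of -0.52. None of 5 near Gas5 passed, by limma, and 1 had an unadjusted p under 0.05. Of all tested loci 25.2% were called, and with so few loci near each host these counts are not read as an excess. Together the 7 hosts other than Snhg8 summed to 732, 816 and 822 FPKM in the null libraries, against 822, 767 and 821 FPKM in the control libraries. The sums overlapped, with means of 790 ± 50.2 FPKM in null cells and 803 ± 31.2 FPKM in control cells (SD, n = 3 each).

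Snhg8 stood apart in its spread. It was at 38.5, 209 and 43.6 FPKM in the null libraries, against 285, 35.1 and 43.8 FPKM in the control libraries. A single library in each group was high, and the highest value was 8.13 times the lowest. The spread within groups was larger than that of 99.5% of tested loci. The log2 change was -0.11 with a 95% interval of -2.22 to 2.003, so these libraries cannot show a change of moderate size. Snora24 lies inside the gene and has no locus of its own in the files, and the Snhg8 locus also lists an assembled transcript. Dancr, a host whose locus is merged with Snora26, also had a wide spread, at 212, 549 and 56.3 FPKM in the null libraries, against 31.97, 147 and 491 FPKM in the control libraries. Snhg16, whose locus is merged with Snord1a, did not, at 23.2 to 28.0 FPKM in null and 24.8 to 28.5 FPKM in control.

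**Figure D3:**
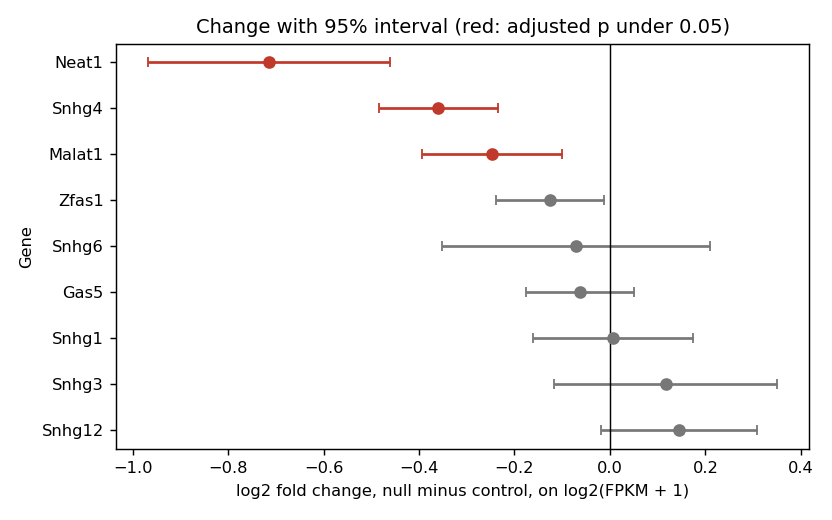
Log2 fold change, null minus control, with its 95% interval, for 9 of the 10 noncoding RNAs. Snhg8 is left off because its interval, -2.22 to 2.003, would hide the others. The intervals of Neat1, Snhg4, Malat1 and Zfas1 lie below 0.

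The files hold 9 loci of snoRNAs that lie within the 8 hosts. Of these, 4 had a value above 0 in all 6 libraries and 5 were listed at 0 throughout. Snord22 was at 2396, 3162 and 2496 FPKM in the null libraries, against 2669, 2329 and 2284 FPKM in the control libraries, with a limma adjusted p of 0.394. The pair in Snhg12, Snora16a and Snora44, overlapped between groups as well, with limma adjusted p-values of 0.748 and 0.690. FPKM of loci shorter than a fragment is unstable, and a 0 can be a failed estimate.

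**Figure D4:**
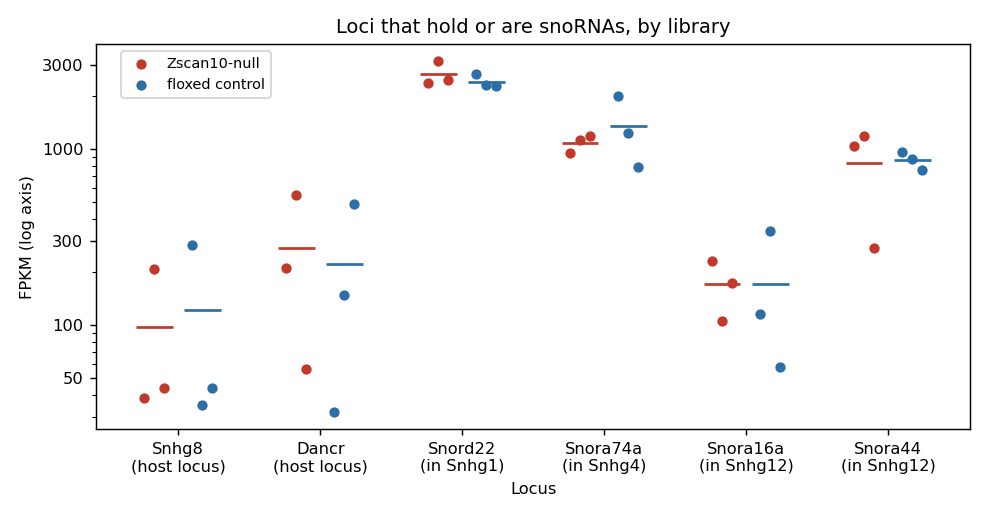
FPKM (log axis) by library of a pair of host loci with a wide spread, Snhg8 and Dancr, and of the 4 hosted snoRNA loci above 0 in all libraries; lines are group means. The null and control points overlap at every locus.

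Across the 117 snoRNA loci of the files, 77 were listed at 0 in all 6 libraries. A further 4 are merged with a host gene, and their values cannot be split between host and snoRNA. The locus that merges Rpl13a and Snord33 was at 10900 FPKM in control replicate 2, against 2176 to 2361 FPKM in the other libraries. Without the 4 merged loci, 5 of 78 box C/D loci were above 0 in every library, and 17 of 35 box H/ACA loci. Of these 22 loci, all tested, 2 rose and none fell, by limma, against 12.8% of all tested loci that rose. At an unadjusted p under 0.05, 3 were higher and none lower, and the median log2 change was -0.02. Snora78 was at 1751, 1849 and 1588 FPKM in the null libraries, against 1376, 1173 and 1325 FPKM in the control libraries, a log2 change of 0.42 with a limma adjusted p of 0.0077. Snora3 was at 238, 161 and 117 FPKM in the null libraries, against 117, 53.8 and 58.9 FPKM in the control libraries, with a limma adjusted p of 0.0397. The groups of Snora78 stood apart, while those of Snora3 nearly met. Another 14 tested loci were listed at 0 in some of the libraries, and no change is read from them.

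Other genes of the same pathways are given as counts beside the 25.2% of loci called. Of 10 further snoRNA host noncoding RNAs tested, none passed, by limma, and 1 was lower at an unadjusted p under 0.05. Their median log2 change was -0.005, against -0.003 over all tested loci. Snhg5 averaged 136 ± 10.02 FPKM in null cells and 136 ± 7.33 FPKM in control cells (SD, n = 3 each). Of 28 protein-coding hosts, 2 rose and 3 fell, with a median log2 change of -0.0009. Hspa8, a constitutive chaperone, fell to 2559 ± 102 FPKM in null cells, against 2920.5 ± 34.7 FPKM in control cells, and Ipo7, a nuclear import receptor, rose to 170 ± 5.85 FPKM in null cells, against 132 ± 4.99 FPKM in control cells (SD, n = 3 each). Rpsa, a ribosomal protein gene, fell by 0.14 on the log2 scale.

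Of 17 proteins that make up or assemble snoRNA particles, 4 rose and none fell, by limma, with a median log2 change of 0.05. At an unadjusted p under 0.05, 5 were higher and none lower. Nop10, a core protein of box H/ACA particles, was at 257.5 ± 7.79 FPKM in null cells and 210 ± 5.39 FPKM in control cells (SD, n = 3 each), with a limma adjusted p of 0.00221. Znhit3, an assembly factor for box C/D particles, had a log2 change of 0.26, and Ruvbl1, an ATPase of the same assembly path, of 0.19. Of 14 factors of nonsense-mediated decay, 2 rose and none fell, by limma, with a median log2 change of 0.06. At an unadjusted p under 0.05, 4 were higher and 1 lower. Smg1, the kinase that phosphorylates Upf1, had a log2 change of 0.35 with a limma adjusted p of 0.00185.

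Of 18 paraspeckle proteins, 2 rose and 3 fell, with a median log2 change of -0.05. Pspc1, a core paraspeckle protein, was at 65.0 ± 3.05 FPKM in null cells and 49.3 ± 0.858 FPKM in control cells (SD, n = 3 each), with a limma adjusted p of 0.00147. Taf15 and Rbm14, RNA-binding proteins found in paraspeckles, fell, with log2 changes of -0.49 and -0.34 and limma adjusted p-values of 0.00542 and 0.0148. Of 16 nuclear speckle proteins, 1 rose and 4 fell, with a median log2 change of -0.0066. Srsf2, a splicing factor that marks speckles, was at 190 ± 28.6 FPKM in null cells and 247 ± 7.57 FPKM in control cells (SD, n = 3 each), with a limma adjusted p of 0.0246. Srrm1 and Hnrnpc had log2 changes of -0.28 and -0.27.

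Of 17 other nuclear and regulatory noncoding RNAs tested, 1 rose and 2 fell, with a median log2 change of -0.005. Terc, the RNA template of telomerase, was at 556 ± 77.2 FPKM in null cells and 298 ± 50.8 FPKM in control cells (SD, n = 3 each), a log2 change of 0.90 with a limma adjusted p of 0.00445. Meg3 and Rian, imprinted noncoding RNAs of the Dlk1-Dio3 cluster, fell, while Mirg of the same cluster averaged 12.6 FPKM in null cells and 11.9 FPKM in control cells, with a limma adjusted p of 0.677. Meg3 was at 38.1 ± 0.352 FPKM in null cells and 50.7 ± 0.344 FPKM in control cells (SD, n = 3 each), with a limma adjusted p of 0.000603, and Rian had a log2 change of -0.28.

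**Figure D5:**
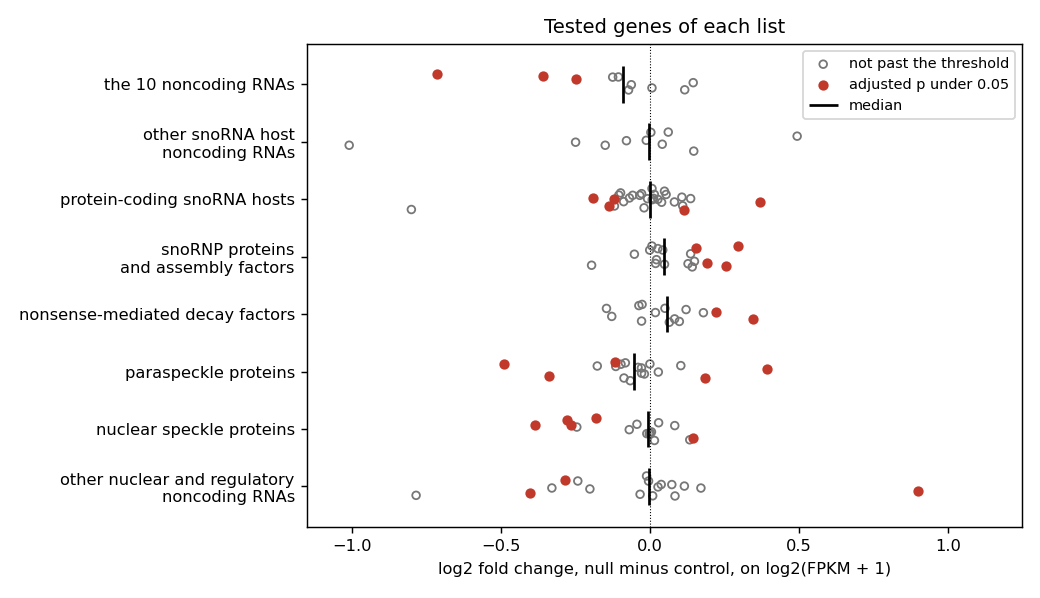
Log2 fold change, null minus control, of every tested gene in each list, with filled points for limma adjusted p under 0.05 and a bar at each list's median. The medians lie between -0.09 and 0.06, and Terc is the filled point at 0.90.

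As a description over the 6 libraries, 10609 tested loci with a named gene were compared with Neat1 and Snhg4, leaving out predicted, unnamed and short RNA loci. Those whose log2(FPKM + 1) was most like that of Neat1 were Pnma5, Cit and Hdac4, with Pearson r of 0.997, 0.995 and 0.995. For Snhg4 they were Slc39a11, Gli1 and Map7, with r of 0.995, 0.995 and 0.994. With 6 points that share 2 groups, 225 loci had r above 0.95 with Neat1 and 280 with Snhg4.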

How the data were processed

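RNA was sequenced in 6 libraries, 3 per group, after ribosomal RNA depletion, per the labels' protocols. Per the submitters' processing notes, Trim Galore, FastQC, TopHat, Cuffdiff and mm10 were used; neither versions nor roles are stated in the sources available. The deposited values were taken as FPKM made by the authors. No label or header names the unit: it was inferred because the values are fractional, depend on length and sum to unequal totals. Whether libraries were scaled to each other is not stated. The test was limma 3.58.1 in R 4.3.3 on log2(FPKM + 1), with eBayes and its trend option and no covariate. Loci whose mean reached 1 FPKM were kept, 11480 of 23244. This scale understates changes of low genes. Positions are from RefSeq GRCm38.p6 and transcripts from GENCODE M21. Depth was read from steps between low values, of which 82.5 to 84.4% lay within 0.2 of a whole number. Genes named in a list were up to 3 called members with the largest change whose higher mean reached 2 FPKM, or the 2 most abundant where none was called; a few genes are counted but not reported by name. Members and lists were chosen with earlier results of these data known. The test was tried on simulated data, and 15 alternatives were run.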

Additional observations from a re-analysis of the deposited data

How the results depend on the processing

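Neat1 and Snhg4 kept their direction and limma adjusted p under 0.05 in 15 of 15 alternatives, with log2 changes of -0.83 to -0.60 and -0.40 to -0.32. Malat1 held in 9 of 15, with log2 changes of -0.30 to -0.20. Zfas1 passed with quantile normalization, at -0.19 and a limma adjusted p of 0.0271. Snhg1 turned to -0.094 with quantile normalization. Leaving out each library in turn gave log2 changes of -0.069 to 0.078 for Snhg1, -0.18 to 0.0081 for Snhg6 and -0.88 to 0.84 for Snhg8. It gave 930 to 1472 loci that rose, 789 to 1442 that fell, 0 to 1 of the 10 RNAs that rose and 2 to 3 that fell. The low counts came without control replicate 1 (963 and 813) and control replicate 2 (930 and 789), and 891 fell without control replicate 3. Of all calls 50.7% were rises, against 62.7% with libraries set to the same total. Same-numbered null and control deviations correlated at -0.0024, 0.108 and 0.0527, and differently numbered ones at -0.222 to 0.163. With so few libraries these values cannot show whether replicate numbers pair the samples. With a replicate block 1190 loci rose and 1074 fell, and the same 3 of the 10 RNAs fell. At the lowest value of each gene, the estimated counting error ran from 0.619% for Malat1 to 6.69% for Snhg6, leaving out Zfas1, for which no transcript length was matched.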

Other observations

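H19, an imprinted noncoding RNA of the regulatory list, was at 1.11, 41.1 and 2.49 FPKM in the null libraries, against 11.1, 10.3 and 10.6 FPKM in the control libraries. Null replicate 2 was far above the other null libraries, and the limma adjusted p was 0.590. Of the 117 snoRNA loci, 2 were listed at 0 in all control libraries and above 0 in all null libraries, and none the other way round; a 0 at such a short locus can be a failed estimate. Snord35b was at 1538, 1387 and 1518 FPKM and Snord8 at 252, 455 and 249 FPKM in the null libraries. These were named after their values were seen.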
